A study of Mus musculus with 12 samples.

Results

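Tight junctions are belts of transmembrane strands that seal the space between neighbouring epithelial cells and set which ions, water and solutes pass between them. The strands are built by claudins, some of which form paracellular channels while others make the barrier tighter, together with occludin and the junctional adhesion molecules, and cytoplasmic zonula occludens proteins anchor them to actin. In the small intestine this seal separates luminal contents from the tissue below, and the paracellular sodium route through claudins serves nutrient uptake.

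The genes described here were 9 tight junction genes chosen by symbol, out of 46078 genes in the deposited tables, and all 9 were found by Ensembl identifier. They comprise the channel-forming claudins Cldn2 and Cldn15, the claudins Cldn3, Cldn4 and Cldn7, the transmembrane proteins Ocln and F11r, and the scaffolds Tjp1 and Tjp3. They were measured by RNA-Seq in epithelial scrapings of the proximal ileum from male C57BL/6 mice that were 28 days old at the first dose and 56 days old at the end. The mice received sesame oil vehicle or 3, 10 or 30 µg/kg TCDD (the dioxin congener tetrachlorodibenzo-p-dioxin, a persistent agonist of the aryl hydrocarbon receptor, AhR) by oral gavage every 4 days for 28 days, 7 gavages in all, with 3 libraries per dose and 12 in all. The submitters call the libraries biological replicates, and every treated group was compared with the same 3 vehicle libraries. The design has a single tissue, sex and end point, and the samples are bulk scrapings, in which fewer cells of a type and less RNA per cell cannot be told apart.

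Gene counts summed to between 11695887 and 22180274 per library. Values are given as CPM, counts per 1000000 counted reads after edgeR's TMM scaling, which divides each library by an effective total so that most genes match between libraries. A gene was called when edgeR's quasi-likelihood test, fitted over all 12 libraries and 15823 genes, gave a Benjamini-Hochberg adjusted p below 0.05 together with a change of at least 1.5-fold. The AhR target Cyp1a1 was at 23.0 ± 4.28 CPM in vehicle and at 77.4 ± 60.0, 1075 ± 235 and 2982 ± 334 CPM at 3, 10 and 30 µg/kg (SD, n = 3), and means of Cyp1b1 and Ahrr ran in the same dose order. At 3 µg/kg 0 of these 3 genes were called, beside 0.228% of all genes. The lowest Cyp1a1 library at that dose, at 22.2 CPM, lay within the vehicle range of 19.0 to 27.5 CPM. Markers of gut position also differed between groups. Fabp6, an ileal bile acid binding protein, was at 22.9 to 38.3 CPM at 3 µg/kg and at most 0.306 CPM elsewhere, and the colonic gene Car1 was at 43.7 to 62.2 CPM at 10 µg/kg and 0 in the other 9 libraries. Fabp6 and Car1 were chosen after their values were seen, and neither set 30 µg/kg apart from vehicle. The summed CPM of 5 pancreas markers did, at 5.19 to 6.46 in vehicle and 0.274 to 1.16 at 30 µg/kg. All 3 that were tested were called lower, beside 141 of all 15823 genes. The pancreas sum was 0 to 0.117 CPM at 3 µg/kg, where the same 3 were called lower, beside 27 of all 15823 genes. At 10 µg/kg it was 1.71 to 1.80 CPM, and 0 of the 3 were called lower, beside 20 of all genes. Vehicle thus lay above every dose, and the order did not follow dose. The part of these markers in the results was not tested, and dose cannot be told apart from the position or purity of the scrapings. The summed CPM of 6 epithelial markers was 6378 to 7573 in vehicle and 7233 to 8033 at 30 µg/kg, and 0 of the 6 were called at that dose.

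Of the 9 tight junction genes, only Cldn3 was called at any dose against vehicle. At 30 µg/kg, 1 of 9 members was called, beside 3.97% of all genes tested. At 3 µg/kg, 0 of 9 were called, beside 0.228% of all genes, and 0 of 9 had an unadjusted p below 0.05. At 10 µg/kg, 0 of 9 were called, beside 0.613% of all genes, and 2 of 9, Cldn3 and Ocln, had an unadjusted p below 0.05. DESeq2 and limma-voom also called 0 members at these 2 doses. The median log2 change over the 9 members was 0.06, 0.08 and 0.06 at 3, 10 and 30 µg/kg, beside medians over all genes of 0.002, -0.010 and -0.016.

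**Figure D1:**
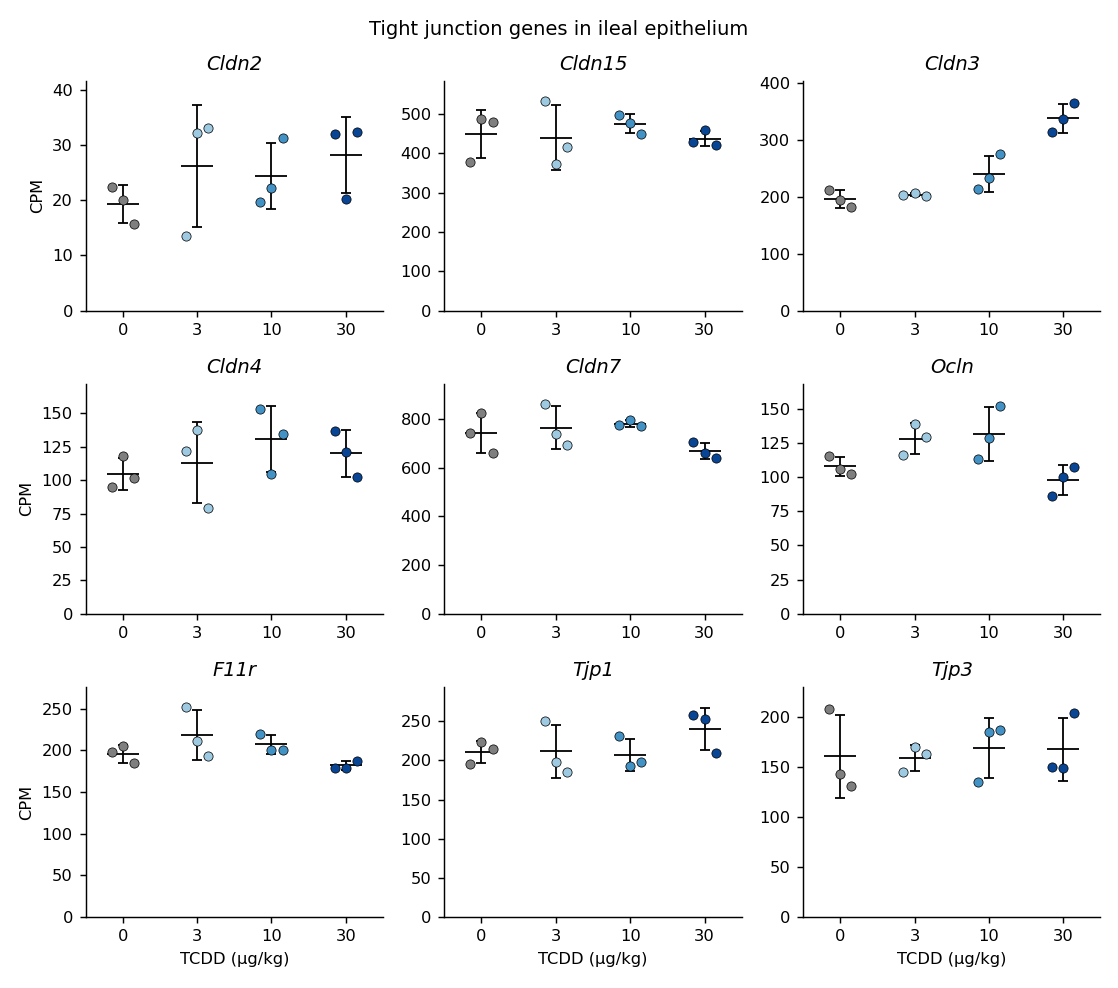
CPM of the 9 tight junction genes in each of the 12 libraries (points) against the TCDD dose in µg/kg, with the mean (bar) and SD (whiskers, n = 3). The 3 Cldn3 libraries at 30 µg/kg lie at 314 to 365 CPM, above all 9 other libraries, whereas the points of most other members overlap between doses.

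Levels were compared between members only per kilobase of annotated exon, since longer transcripts collect more reads. In vehicle ileum Cldn7 was highest at 380 ± 42.4 CPM per kb (SD, n = 3), followed by Cldn15 at 211 ± 28.4 and Cldn3 at 156 ± 12.4 CPM per kb. F11r was at 73.7 ± 4.04, Cldn4 at 57.6 ± 6.55 and Tjp3 at 43.3 ± 11.3 CPM per kb, and Tjp1 at 27.1 ± 1.80, Ocln at 25.5 ± 1.62 and Cldn2 at 5.81 ± 1.02 CPM per kb closed the order. The vehicle libraries of Cldn4 and Tjp3 overlapped, as did those of Tjp1 and Ocln, so those neighbours in the order did not differ beyond their spread. All other neighbours were apart in the 3 vehicle libraries. The exon length counts every annotated exon and not the isoform used in ileum.

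Cldn2 and Cldn15 form paracellular cation channels. Cldn2 (chrX:139800828-139811386, build GRCm38) was at 22.3, 20.04 and 15.6 CPM in the vehicle libraries, 13.4, 32.1 and 33.1 CPM at 3 µg/kg, 19.7, 22.3 and 31.2 CPM at 10 µg/kg, ending with 31.9, 20.2 and 32.4 CPM at 30 µg/kg. It is the least abundant member, with 178 to 625 counts per library, and each dose overlapped vehicle. Its log2 change was 0.45 (SE 0.30) at 3 µg/kg and 0.55 (SE 0.30, 95% interval -0.10 to 1.201) at 30 µg/kg, and it was not called (edgeR quasi-likelihood test, Benjamini-Hochberg adjusted p 0.6001 and 0.309). The upper bound at 30 µg/kg lies above a 1.5-fold rise, so a rise of that size lies within the interval.

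Cldn15 (chr5:136966616-136975858) was at 379, 487 and 479 CPM in vehicle, 531, 372 and 415 CPM at 3 µg/kg, 498, 476 and 449 CPM at 10 µg/kg, ending with 429, 458 and 422 CPM at 30 µg/kg. The doses overlapped vehicle throughout. Against vehicle, 30 µg/kg gave a log2 change of -0.04 (SE 0.13, 95% interval -0.33 to 0.25), an interval that holds no 1.5-fold change in either direction. Across the 12 libraries log2 CPM of Cldn2 and Cldn15 ran opposite to each other (Pearson r -0.72, n = 12 libraries, a description across libraries that share dose and scraping). Within each dose Cldn2 was lower and Cldn15 higher in the libraries of high Dbp, a clock gene described with clock phase. The part of clock phase in this correlation was not tested.

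Cldn3, Cldn4 and Cldn7 are claudins of absorptive and secretory epithelia, and Cldn3 is known as a sealing claudin. Cldn3 (chr5:134986214-134987472, 1 exon) was at 213, 194 and 182 CPM in vehicle, 204, 207 and 202 CPM at 3 µg/kg, 213, 234 and 276 CPM at 10 µg/kg, ending with 314, 337 and 365 CPM at 30 µg/kg. Every library at 30 µg/kg was above every library of the other groups, while 3 µg/kg lay within the vehicle range. Cldn3 was 1.73-fold higher at 30 µg/kg than in vehicle (log2 change 0.79, SE 0.11, 95% interval 0.56 to 1.02, edgeR quasi-likelihood adjusted p 0.000788), with 2701 to 6666 counts per library behind these values. At 10 µg/kg its log2 change was 0.30 (SE 0.11, unadjusted p 0.0150, adjusted p 0.209 by the same edgeR test) and it was not called.

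The Cldn3 difference at 30 µg/kg stood beside a difference by transcript length. Among 373 protein-coding genes with a mean of at least 10 CPM and under 1500 nt of exon, the median log2 change at 30 µg/kg was 0.40 and 32.7% were called higher, against 1.01% of 2972 such genes of 6000 nt or more, and Cldn3 has 1259 nt of exon with 62.7% GC. After each library was corrected for its dependence on length and GC content, the log2 change of Cldn3 was 0.52 (edgeR quasi-likelihood adjusted p 0.00788), below the 1.5-fold limit, and the call was lost. The 7 Paneth cell markers were all called higher at 30 µg/kg, where their summed CPM was 2220 to 3061 against 700 to 1067 in vehicle. Of the goblet cell markers 3 of 7 were called higher, beside 487 of all 15823 genes tested. The summed CPM of 4 stem cell markers was 142 to 178 at 30 µg/kg against 87.5 to 106 in vehicle. That of 7 proliferation markers was 319 to 438 against 244 to 297. In these 2 lists 0 genes were called, beside 3.97% of all genes tested. The part of the Paneth, goblet, stem cell and proliferation markers in the Cldn3 difference was not tested. Scaled to the 6 epithelial markers in place of TMM, which put the median of all genes at -0.15 at 30 µg/kg (-0.02 with TMM), Cldn3 stood at 0.66 and was still called.

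Cldn4 (chr5:134945119-134946934), the neighbour of Cldn3 on chromosome 5, was at 94.6, 118 and 101 CPM in vehicle, 122, 138 and 79.3 CPM at 3 µg/kg, 153, 105 and 134 CPM at 10 µg/kg, ending with 137, 121 and 102 CPM at 30 µg/kg. All 3 doses overlapped vehicle. Its log2 change was 0.32 (SE 0.19) at 10 µg/kg and 0.20 (SE 0.19, 95% interval -0.22 to 0.62) at 30 µg/kg, and neither was called. Cldn7 (chr11:69964779-69967885) was at 742, 823 and 658 CPM in vehicle, 862, 737 and 691 CPM at 3 µg/kg, 776, 797 and 769 CPM at 10 µg/kg, ending with 706, 658 and 639 CPM at 30 µg/kg. The 30 µg/kg libraries overlapped vehicle but lay below the 10 µg/kg libraries. The log2 change of Cldn7 was -0.15 (SE 0.11) at 30 µg/kg against vehicle and -0.23 (SE 0.11) against 10 µg/kg, and it was not called in either comparison.

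The sequences just upstream of these genes are shown for Cldn3 and its neighbour Cldn4, which was not called, and for Ildr1, the junction gene with the largest change among those listed (described with the other junction genes). Each is the 250 bases before the RefSeq start site, 5′ to 3′ on the gene's strand, in build GRCm38.p6, at chr5:134985964-134986213 (plus strand) for Cldn3, chr5:134946935-134947184 (minus strand) for Cldn4 and chr16:36693728-36693977 (plus strand) for Ildr1. Capitals mark the core motif of the dioxin response element, GCGTG, searched on both strands, the sequence on DNA that ligand-bound AhR is known to contact.
Cldn3: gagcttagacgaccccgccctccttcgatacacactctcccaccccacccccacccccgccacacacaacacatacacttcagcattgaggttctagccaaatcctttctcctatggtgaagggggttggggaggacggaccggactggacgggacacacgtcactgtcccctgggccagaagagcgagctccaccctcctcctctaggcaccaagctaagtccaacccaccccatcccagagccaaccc
Cldn4: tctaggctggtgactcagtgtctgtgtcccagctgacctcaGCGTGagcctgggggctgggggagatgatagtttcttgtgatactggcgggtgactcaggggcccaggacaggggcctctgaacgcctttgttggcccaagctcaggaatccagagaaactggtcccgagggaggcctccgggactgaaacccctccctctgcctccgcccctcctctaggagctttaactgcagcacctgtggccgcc
Ildr1: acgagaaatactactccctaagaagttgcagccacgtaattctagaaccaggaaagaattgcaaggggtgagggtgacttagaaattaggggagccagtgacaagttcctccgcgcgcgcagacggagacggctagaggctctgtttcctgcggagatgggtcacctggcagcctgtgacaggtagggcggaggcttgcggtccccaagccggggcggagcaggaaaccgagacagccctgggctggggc
The motif was absent from these windows of Cldn3 and Ildr1 and occurred once in that of Cldn4, with its first base 209 bases before the start site. The 9 members had 12 windows, of which 6 (from Cldn4, Cldn7, Ocln and F11r) held the motif, beside 28.2% of 32851 such windows in the table. The windows of Cldn2, Cldn15, Cldn3, Tjp1 and Tjp3 held none, and that of Cyp1a1 held 1. A match in this window is a description of its letters and not a bound site.

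Claudin transcripts were next compared as shares of one pool, the CPM per kb summed over 21 claudins. Cldn3 made up 18.8% ± 1.94 of the pool in vehicle (SD, n = 3), then 19.1% ± 1.78, 20.9% ± 2.46 and 29.7% ± 2.46 as the dose went from 3 to 30 µg/kg. Cldn7 made up 45.7% ± 2.43 in vehicle and 37.8% ± 1.71 at 30 µg/kg, and Cldn15 made up 25.4% ± 3.27 and 22.6% ± 0.946. Cldn4 held 6.91% ± 0.406 and 7.28% ± 1.00, and Cldn2 held 0.698% ± 0.120 and 0.933% ± 0.231. Shares of a pool move against each other, so the lower share of Cldn7 stands beside a Cldn7 level that was not called. The shares carry no correction for each library's dependence on length and GC content, under which the Cldn3 log2 change at 30 µg/kg fell to 0.52.

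**Figure D2:**
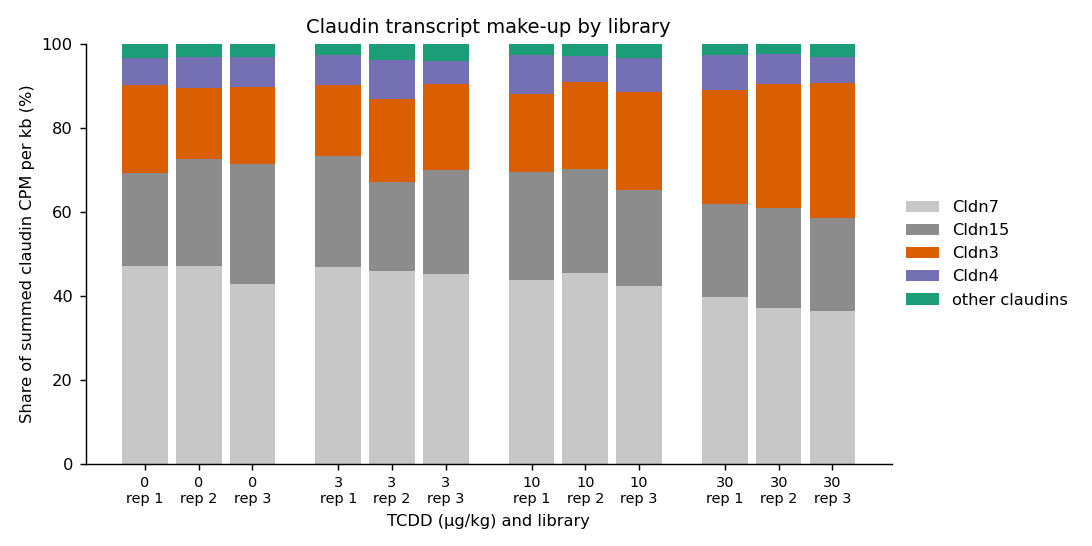
Share of the summed CPM per kb of 21 claudins (percent, stacked to 100) in each library, grouped by TCDD dose in µg/kg. The Cldn3 segment spans 17.1% to 23.5% in the 9 libraries of vehicle, 3 and 10 µg/kg and 27.3% to 32.2% in the 3 libraries at 30 µg/kg. Shares are not corrected for each library's dependence on length and GC content.

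Ocln and F11r are the other transmembrane members. Ocln (chr13:100496507-100552718), which encodes occludin, was at 115, 106 and 102 CPM in vehicle, 116, 139 and 130 CPM at 3 µg/kg, 113, 129 and 152 CPM at 10 µg/kg, ending with 85.7, 99.97 and 107 CPM at 30 µg/kg. All libraries at 30 µg/kg lay below all libraries at 3 and 10 µg/kg but overlapped vehicle. Those at 3 µg/kg lay above vehicle, by 116 against 115 CPM at their closest. Ocln was also lower with high Dbp within each dose, and the doses hold unequal numbers of high-Dbp libraries (described with clock phase). The part of clock phase in these separations was not tested. The log2 change of Ocln was 0.29 (SE 0.12) at 10 µg/kg and -0.14 (SE 0.12, 95% interval -0.40 to 0.12) at 30 µg/kg against vehicle. At 30 against 10 µg/kg the log2 change was -0.43 (SE 0.12), which was not called (edgeR quasi-likelihood adjusted p 0.0640).

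F11r (chr1:171437535-171464603), which encodes junctional adhesion molecule A, was at 199, 205 and 184 CPM in vehicle, 252, 212 and 193 CPM at 3 µg/kg, 220, 201 and 201 CPM at 10 µg/kg, ending with 179, 179 and 188 CPM at 30 µg/kg. The 30 µg/kg libraries lay below those at 3 and 10 µg/kg, and the highest of them lay within the vehicle range. The 30 µg/kg group differed from vehicle by -0.11 on the log2 scale (SE 0.10, 95% interval -0.32 to 0.11). Log2 CPM of F11r and Cldn7 ran together over the 12 libraries (Pearson r 0.81, n = 12, a description).

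Tjp1 and Tjp3 encode the scaffolds ZO-1 and ZO-3, which tie claudins and occludin to the actin cytoskeleton. Tjp1 (chr7:65296165-65527781) was at 196, 224 and 214 CPM in vehicle, 250, 198 and 186 CPM at 3 µg/kg, 231, 193 and 198 CPM at 10 µg/kg, ending with 258, 254 and 209 CPM at 30 µg/kg. The groups overlapped, and at 30 µg/kg the change was 0.18 on the log2 scale (SE 0.13, 95% interval -0.09 to 0.46). Tjp3 (chr10:81273207-81291581) was at 209, 143 and 131 CPM in vehicle, 145, 170 and 164 CPM at 3 µg/kg, 135, 185 and 187 CPM at 10 µg/kg, ending with 150, 149 and 205 CPM at 30 µg/kg. It spread widely within each group, and the difference at 30 µg/kg was 0.06 on the log2 scale (SE 0.19, 95% interval -0.34 to 0.47). Tjp3 shares 40 exon bases with Apba3 on the opposite strand, and Cldn3 shares 40 with the antisense gene Wbscr25, which had 88 counts over all libraries. Whether counting used strand is not given in the sources used here, so reads in these stretches cannot be told apart.

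**Figure D3:**
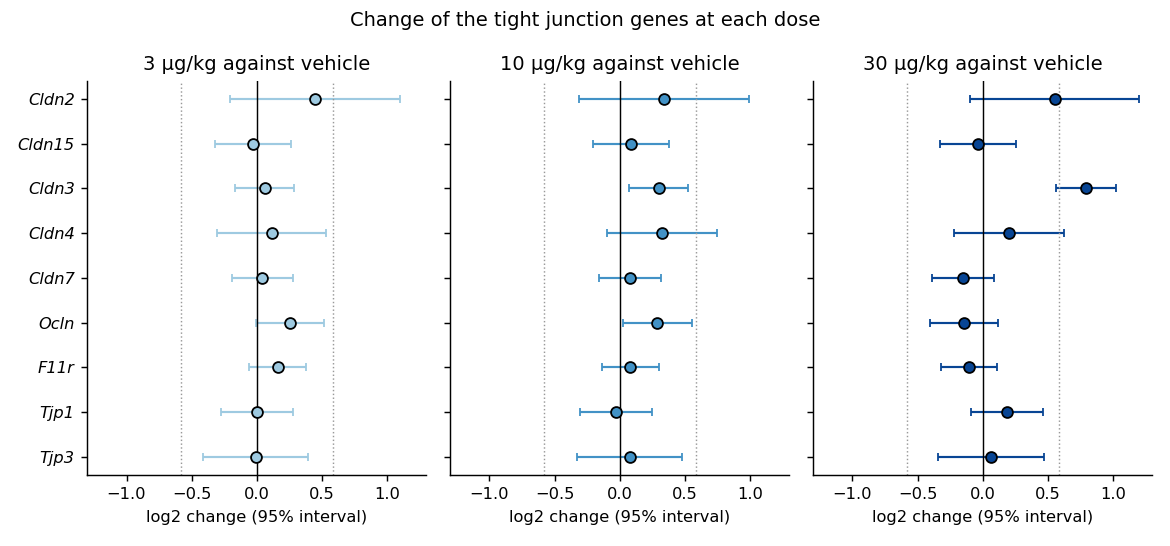
Log2 change of each tight junction gene at 3, 10 and 30 µg/kg against the shared vehicle libraries (points) with 95% intervals from edgeR's quasi-likelihood fit; dotted lines mark 1.5-fold. Cldn3 at 30 µg/kg, at 0.79 with an interval of 0.56 to 1.02, is the only point past a dotted line.

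The dose order was examined with neighbouring doses and with a trend over dose rank, the slope of log2 CPM over the 4 dose ranks scaled to the span from vehicle to 30 µg/kg. For 10 against 3 µg/kg, 0 of 9 members were called, beside 0.158% of all genes, with 1 of 9, Cldn3, at an unadjusted p below 0.05 (log2 change 0.24, SE 0.11). For 30 against 10 µg/kg, 0 of 9 were called, beside 2.77% of all genes, with 2 of 9, Cldn3 and Ocln, at an unadjusted p below 0.05, and DESeq2 and limma-voom called 0 in both comparisons. Cldn3 rose from 10 to 30 µg/kg by a log2 change of 0.49 (SE 0.11, edgeR quasi-likelihood adjusted p 0.0205), which passed the p limit but not the 1.5-fold limit. Without the third 10 µg/kg library, the highest of its group at 276 CPM, that comparison did call Cldn3, and 1 of 9 members was called. For the trend, 1 of 9 members was called, beside 3.29% of all genes, and this was Cldn3 with a log2 change of 0.78 over the dose span (SE 0.12, edgeR quasi-likelihood adjusted p 0.00232). That call, too, was lost after the correction for length and GC content.

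The other junction genes examined were 65 claudins, tricellular and adhesion molecules, scaffolds, regulators, and adherens junction or desmosome genes, of which 49 passed the filter on low counts. At 30 µg/kg, beside 3.97% of all genes tested, 1 of these 49 was called higher and 1 lower. The other 16 reached at most 0.936 CPM in any library, and 14 of them were claudins, so of 16 further claudins only Cldn12 and Cldn23 were measurable. Another group held tricellular and related genes, and some of their products seal the points where 3 cells meet. In this group Ildr1 (angulin-2) was called higher and Marveld2, Marveld3 and Lsr were not called.

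Ildr1 was at 4.01, 3.29 and 2.15 CPM in vehicle, 5.66, 6.37 and 6.69 CPM at 3 µg/kg, 18.6, 22.6 and 22.7 CPM at 10 µg/kg, ending with 38.2, 32.7 and 44.0 CPM at 30 µg/kg. No 2 doses overlapped, and each higher dose lay above the one before. Ildr1 was also lower with high Dbp within each dose, and the doses hold unequal numbers of high-Dbp libraries. The part of clock phase in these steps was not tested. It was 12.2-fold higher at 30 µg/kg than in vehicle (log2 change 3.61, SE 0.20, edgeR quasi-likelihood adjusted p 6.95e-07), and its log2 change was 2.76 (SE 0.19, adjusted p 1.94e-05 by the same edgeR test) at 10 µg/kg. At 3 µg/kg its log2 change was 0.99 (SE 0.20) and it was not called (edgeR quasi-likelihood adjusted p 0.0845), although the 3 libraries lay above vehicle. It was also called at 10 against 3 µg/kg (1.77, SE 0.18), at 30 against 10 µg/kg (0.85, SE 0.17) and for the trend. The 30 against 10 µg/kg call of Ildr1 was lost without 10 µg/kg library 1 (0.76), 10 µg/kg library 2 (0.89) or 30 µg/kg library 3 (0.74), with epithelial scaling (0.83) and within the libraries of high Dbp, the clock gene described with clock phase, (0.93, 2 libraries against 1). Within those libraries the 10 against 3 µg/kg value was 1.75, not called, with 1 library in each group. Its change at 3 µg/kg was called by DESeq2, with a score over clock genes as a term in the fit, without the count filter and without 3 µg/kg library 1 (1.05).

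Cldn23, a claudin of differentiated intestinal epithelium, was at 22.5, 27.6 and 24.6 CPM in vehicle, 25.2, 25.3 and 24.2 CPM at 3 µg/kg, 19.8, 19.7 and 26.6 CPM at 10 µg/kg, ending with 14.7, 14.0 and 18.9 CPM at 30 µg/kg. The 30 µg/kg libraries lay below those of every other group. Cldn23 was called lower at 30 µg/kg (log2 change -0.65, SE 0.14, edgeR quasi-likelihood adjusted p 0.0197) and for the trend (-0.63, SE 0.16, adjusted p 0.0362 in the edgeR fit). The call at 30 µg/kg was lost without vehicle library 2 (-0.57), vehicle library 3 (-0.66), 30 µg/kg library 1 (-0.59) or 30 µg/kg library 2 (-0.57). The trend call was lost when any of 9 of the 12 libraries was left out, with values of -0.51 to -0.68, and kept without vehicle library 1, 3 µg/kg library 1 or 10 µg/kg library 3.

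**Figure D4:**
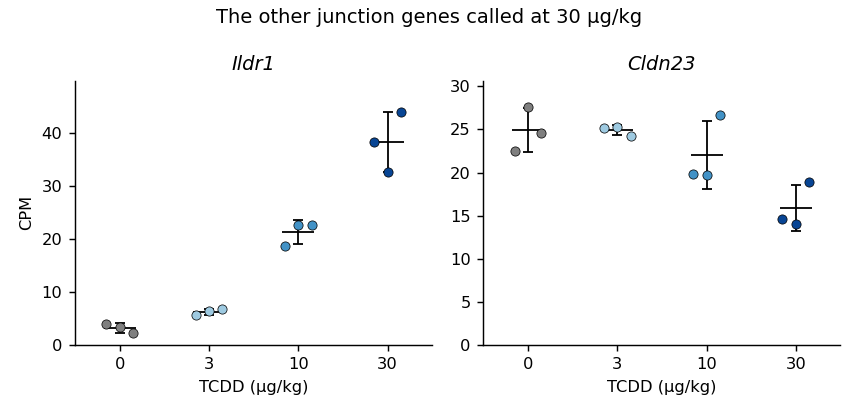
CPM of Ildr1 and Cldn23 in each library (points) against the TCDD dose in µg/kg, with the mean (bar) and SD (whiskers, n = 3). Ildr1 steps up from 2.15 to 4.01 CPM in vehicle to 32.7 to 44.0 CPM at 30 µg/kg, and Cldn23 lies at 14.0 to 18.9 CPM at 30 µg/kg against 22.5 to 27.6 CPM in vehicle.

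In the remaining lists no gene was called at 30 µg/kg, beside 3.97% of all genes tested. These were 0 of 4 adhesion molecules with an unadjusted p below 0.05 in 0, 0 of 17 scaffold and polarity genes with 1, 0 of 8 regulators with 3, and 0 of 14 adherens junction and desmosome genes with 2 (edgeR). The share of all genes below that unadjusted limit is not given here, so nothing is read from these unadjusted counts. The most abundant genes of each list are named. Cxadr and Igsf5 had log2 changes of -0.17 (SE 0.09) and -0.09 (SE 0.09) at 30 µg/kg. The scaffold Patj had -0.12 (SE 0.10), and cingulin (Cgn) was at 247 to 261 CPM in vehicle and 242 to 265 CPM at 30 µg/kg. Mylk, the myosin light chain kinase that opens junctions by actomyosin contraction, was at 281 to 355 CPM in vehicle and 229 to 250 CPM at 30 µg/kg, without overlap. Its log2 change was -0.36 (SE 0.10, edgeR quasi-likelihood adjusted p 0.0560) and it was not called. The scrapings also held muscle transcripts, with a summed CPM of 5 smooth muscle markers of 47.1 to 166 in vehicle and 29.7 to 105 at 30 µg/kg. The part of muscle in the Mylk values was not tested. Rock2 was at 197 to 282 CPM in vehicle and 200 to 245 CPM at 30 µg/kg, desmoplakin (Dsp) at 688 to 924 and 732 to 803 CPM, and E-cadherin (Cdh1) at 696 to 822 and 745 to 826 CPM, so these 3 overlapped.

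Within each dose the libraries also split by the level of the clock gene Dbp, a split called clock phase here. The phase is inferred from expression alone. Per the study's methods, all tissues were collected near the start of the light phase. Dbp, a clock output gene that swings strongly over the day, was at 29.0 to 121 CPM in 6 libraries and at 0.980 to 3.39 CPM in the other 6. The high-Dbp libraries were vehicle 2 and 3, the first library at 3 and at 10 µg/kg, and the first and second at 30 µg/kg. For 5 of the 9 members, Cldn2, Cldn15, Ocln, Tjp1 and Tjp3, the high-Dbp libraries lay wholly on the same side of the low-Dbp libraries in all 4 groups, as did 14.4% of all genes tested. The split was chosen after seeing the data and was not tested. Tissue markers differed along it too. The summed CPM of 8 enterocyte markers was 39044 to 49285 with high Dbp and 33289 to 39676 with low Dbp. That of the 6 epithelial markers was 7279 to 9088 and 6378 to 7423, while goblet and Paneth cell sums overlapped widely. The part of these markers in the separations was not tested, and clock phase cannot be told apart from tissue make-up here.

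Tjp1 was higher with high Dbp, at 214 to 258 CPM in those 6 libraries against 186 to 209 CPM in the other 6, so the 2 sets were apart regardless of dose. Tjp3 ran the other way, at 131 to 150 CPM with high Dbp and 164 to 209 CPM with low Dbp, again without overlap over all doses. Cldn15 was higher and Cldn2 and Ocln were lower with high Dbp within each dose. Cldn3, Cldn4, Cldn7 and F11r did not separate in this way. The 30 µg/kg log2 change of Cldn3 was 0.80 among the 6 high-Dbp libraries, where both groups hold 2 libraries, and it was called there (edgeR quasi-likelihood adjusted p 0.00162). Among the 6 low-Dbp libraries it was 0.79, a difference between 1 library at 30 µg/kg and 1 vehicle library, from which no call is drawn. Ildr1 and Cldn23 were also called with high Dbp (3.70 and -0.85), and the same single pair of low-Dbp libraries differed by 3.47 and -0.24.

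**Figure D5:**
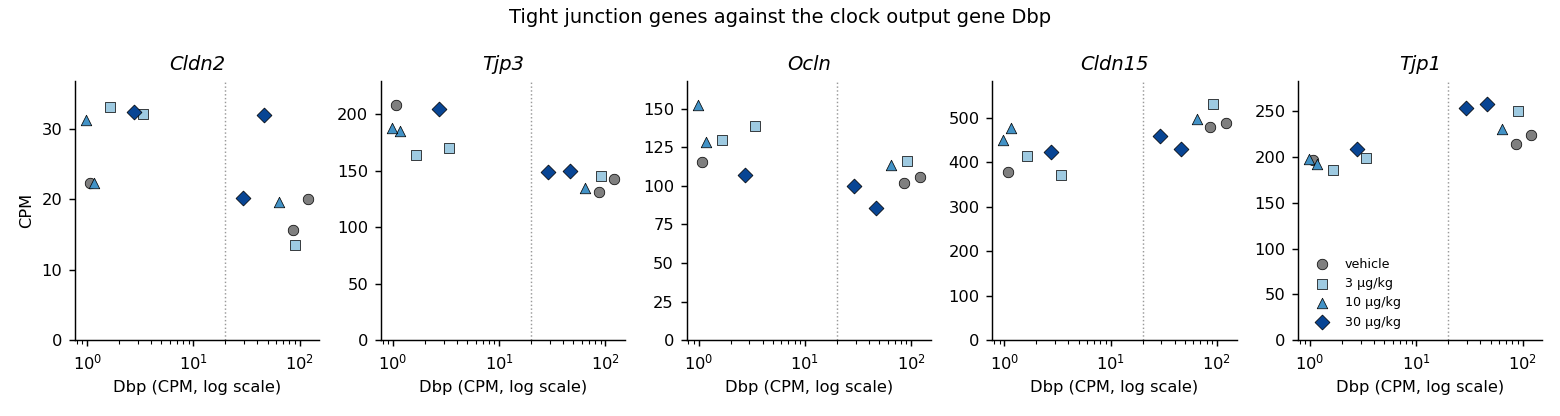
CPM of Cldn2, Tjp3, Ocln, Cldn15 and Tjp1 in each library against Dbp (CPM, log scale), with marker shape and shade giving the dose and a dotted line at 20 CPM of Dbp. The 6 libraries right of the line hold Tjp1 at 214 to 258 CPM and Tjp3 at 131 to 150 CPM.

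Genes whose log2 CPM was most like each member over the 12 libraries were taken from 8022 genes with a mean of at least 10 CPM, as a description of libraries that share dose and clock phase. For the claudins these were H2afz (Pearson r 0.97), Suv39h1 and Cluh for Cldn2, Tbc1d24 (0.91), Sfxn1 and Slc5a4a for Cldn15, and Tnfrsf10b (0.97), Sct and Tmem258 for Cldn3. Gprc5a (0.92), Fam83b and Zfand2a were most like Cldn4, and Klf6 (0.91), Urgcp and Tpd52 most like Cldn7. Hadhb (0.96), Vps13b and Tnfrsf11a were most like Ocln, and Ppp6c (0.91), Chmp3 and the junction gene Cxadr (0.90) most like F11r. For the scaffolds they were Dnpep (0.97), Bco1 and Bcar1 for Tjp1, and Bid (0.97), Ifngr1 and Idnk for Tjp3.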

How the data were processed

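RNA-Seq of ileal epithelial scrapings gave 1 table per library, deposited as read counts per gene. Per the labels and the submitters' processing notes, the authors used FastQC 0.11.3, Trimmomatic 0.33, TopHat2 2.1.0, SAMtools 1.2.0, HTSeq 0.6.1 and DESeq with build GRCm38. The annotation release and the strand setting are not given in the sources used here. Per the study's methods, mice were gavaged and tissues collected near the start of the light phase. Rows that name no gene, which held 60.3% to 64.6% of entries per library (reads in no single gene and repeated alignments of one read), were left out. GENCODE M21 supplied symbols, positions and exon lengths for 45229 of 46078 identifiers, and the others held 0.749% of gene counts.

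The main fit was edgeR 4.0.16 (TMM, filterByExpr, quasi-likelihood test over 4 groups and 12 libraries, R 4.3.3), with Benjamini-Hochberg adjustment over all 15823 genes tested. DESeq2 1.42.0 and limma-voom 3.58.1 were alternatives, with other scalings and filters, and the code was tested on simulated data. Named were all members, other junction genes called in any comparison or else the 2 most abundant of a list, and 3 like genes per member. The members and lists were chosen with earlier results of these data known. Replicates carry no numbers in the labels. Positions are in GRCm38 and promoter letters in RefSeq's GRCm38.p6 table.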

Additional observations from a re-analysis of the deposited data

How the results depend on the processing

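The count of members called was recomputed under 12 other settings and without each of the 12 libraries in turn, and, as alternatives chosen after seeing the data, within the 6 high-Dbp and the 6 low-Dbp libraries. With the length and GC trend removed, the members called at 30 µg/kg and for the trend both fell to 0 from 1, and within the low-Dbp libraries, with 1 vehicle and 1 30 µg/kg library, the trend count was also 0. Without 1 library the members called at 30 against 10 µg/kg ranged from 0 to 1. Every other member count kept its value. The log2 change of Cldn3 at 30 µg/kg ranged from 0.52 to 0.86 over these alternatives. For members that were not called, the log2 change at 30 µg/kg changed sign for Cldn15 without vehicle library 2 or 3 (range over libraries left out -0.138 to 0.0278) and within low Dbp (0.166). That of Tjp3 changed sign with epithelial scaling (-0.0749), without vehicle library 2 or 3 or 30 µg/kg library 3 (range over libraries left out -0.104 to 0.303) and within low Dbp (-0.0176), and that of Cldn2 at 3 µg/kg did so within high Dbp (-0.43). The causes were not tested. Epithelial scaling moved the median of all genes to -0.11, -0.12 and -0.15 at 3, 10 and 30 µg/kg, and member values under it are relative to that shift. Counts over all genes ranged from 6 to 162 at 3 µg/kg (36 in the report's fit), from 33 to 262 at 10 µg/kg (97), from 433 to 875 at 30 µg/kg (628), from 7 to 54 for 10 against 3 µg/kg (25), from 156 to 598 for 30 against 10 µg/kg (439) and from 66 to 722 for the trend (520). No paired analysis was possible because the labels give the libraries no replicate numbers. With 3 libraries per dose, SEs of 0.10 to 0.30 on the log2 scale limit what could be seen.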
